A study of Mus musculus with 8 samples.

Results

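Zinc finger proteins fold around zinc ions, most often through pairs of cysteines and histidines (the C2H2 finger), and many bind DNA with arrays of such fingers. A large branch of them, the KRAB zinc finger proteins, represses genes and transposable elements by recruiting the co-repressor Trim28 and its chromatin-modifying partners. Others act elsewhere in the cell, on ribosomes, RNA or the cytoskeleton, so that the shared name Zfp is one of nomenclature more than of function. The protein-coding genes whose symbol is Zfp followed by a number were taken here, without the Zfp36 family, whose zinc fold is of another kind. There were 19 such genes among the 1931 genes of the table.

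RNA was read in the kidney of the MRL-lpr mouse, a strain prone to lupus whose lpr mutation disables the death receptor Fas, at 12 weeks of age. One group of 4 libraries came from mice given propionate, a short-chain fatty acid of gut bacteria, at 200 mM in drinking water over 6 weeks, and the other 4 were the controls. Strain, age and tissue were shared by both groups. Sex, litter, the control drink and whether each library is a separate mouse are not stated in the labels, so the p-values measure the spread between these libraries. Assigned reads per library ranged from 24608712 to 26711127 with propionate and from 20005328 to 26002214 in controls. Of 22 kidney cell markers, 8 were among the listed genes, 4 higher and 4 lower, and 3 of these, all of the proximal tubule, passed in the authors' deposited table. Pck1, an enzyme of glucose synthesis, fell (15322 ± 2996 scaled counts with propionate and 27124 ± 2295 in controls, SD, n = 4 each). Slc13a3, a carrier of dicarboxylates, fell too (12957 ± 1532 and 16430 ± 845 in that order), and Slc6a19, a carrier of neutral amino acids, rose (8550 ± 868 and 5666 ± 1109). Their part in the values below was not tested. None of 12 lymphocyte markers and 1 of 7 myeloid markers, Cd68, were among them. Cd68 had 167 ± 76.4 scaled counts with propionate and 273 ± 102 in controls (SD, n = 4 each), and its part was not tested either.

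The authors had kept in the table only genes with an unadjusted p of up to 0.05 between these same libraries, so every gene listed differs by that measure and the Zfp genes outside the table are not analysed here. Scaled counts are read counts divided by the authors' size factor of each library, and FPKM are counts divided by gene length and library size. In what follows a gene rose or fell only where its adjusted p in the authors' deposited table, taken over 16064 genes, was under 0.05.

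With propionate, Zfp622 rose and Zfp704 fell, and the other 17 members did not pass. These 2 of 19 members (10.5%) stand beside 8.13% of all listed genes that passed in the authors' deposited table, 2.8% of them higher and 5.33% lower. Of the 19, 5 were higher and 14 lower with propionate, and all differences were small, from 13.2% to 26.6% below the control mean among the lower members and from 15.6% to 35.0% above it among the higher. Among all 1792 listed genes tested, 53.2% were higher and 46.8% lower. Of the 19 members 14 were long genes, and their share of lower genes is set beside that of other long genes further on.

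For the gene that rose and for the lower member with the smallest p among those with a promoter entry, the 250 bases before the start of transcription are shown, since members that move in opposite directions could be compared there. They are from RefSeq on GRCm38.p6, written 5′ to 3′ on the strand of the gene, for Zfp622 at chr15:25984116-25984365 on the plus strand and for Zfp810 at chr9:22307639-22307888 on the minus strand. Capitals mark matches to the motifs named in the next paragraph.
Zfp622: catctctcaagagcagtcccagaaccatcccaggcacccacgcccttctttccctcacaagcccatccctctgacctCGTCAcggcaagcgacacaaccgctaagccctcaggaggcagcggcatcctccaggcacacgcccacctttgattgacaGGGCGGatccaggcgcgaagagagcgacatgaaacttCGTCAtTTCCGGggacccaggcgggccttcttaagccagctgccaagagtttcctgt
Zfp810: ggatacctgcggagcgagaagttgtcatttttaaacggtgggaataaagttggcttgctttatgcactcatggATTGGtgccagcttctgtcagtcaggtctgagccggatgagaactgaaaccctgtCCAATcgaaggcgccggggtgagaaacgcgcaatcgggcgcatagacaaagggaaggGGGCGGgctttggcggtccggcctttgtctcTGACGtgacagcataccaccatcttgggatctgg

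Promoter entries were found for 16 of the 19 members, with 19 promoters in all because Zfp217, Zfp691 and Zfp788 have 2 each; Zfp40, Zfp524 and Zfp704 have none in the table used. The searched motifs were matched on both strands, and none contains another. The SP/KLF box GGGCGG was in 10 of 19 member promoters (52.6%), against 32.7% of 32851 promoters of the same length, and both sequences shown hold it. The NFY box CCAAT was in 8 of 19 (42.1%, against 33.8%) and in Zfp810 but not in Zfp622. The ETS site CCGGAA was in 5 of 19 (26.3%, against 12.0%), in the genes Zfp622, Zfp691 and Zfp787, which were higher, and Zfp217 and Zfp945, which were lower. The half-site TGACG of the cyclic AMP response element was in 3 of 19 (15.8%, against 17.8%) and the TATA box TATAAA in 2 of 19 (10.5%, against 12.4%). The NRF1 motif and the YY1 motif AAGATGGCG were in 0 of 19, against 0.782% and 0.606%. The TATA box was in Zfp788 and Zfp827, both lower, and the other 4 motifs found in members were in higher and lower ones alike. In Zfp788 the TATA box lay only in the promoter at chr7:41634540-41634789, where no GENCODE M21 transcript of the gene was found to start. The member promoters had a median of 13 CpG pairs, against 6 over all promoters. These are matches of letters and describe the sequences only.

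Zfp622, whose human counterpart acts in the cytoplasmic maturation of the large ribosomal subunit, rose. It had 803, 944, 843 and 993 scaled counts in the propionate libraries, against 653, 700, 611 and 690 in the control libraries. The groups did not overlap, and the lowest propionate library stood above the highest control library. The mean was 896 ± 87.9 scaled counts with propionate and 664 ± 40.3 in controls (SD, n = 4 each), a log2 fold change of 0.43 ± 0.08 (SE) by edgeR. In the authors' deposited table it passed with an adjusted p of 0.0032. By edgeR's quasi-likelihood test adjusted over the same 16064 genes it was 0.182, which did not pass. By DESeq2 over those genes it was 0.00272 with all libraries. Without control replicate 3 DESeq2 gave 0.0594, with a log2 fold change of 0.40. With any other library left out it gave from 0.00105 to 0.0248. Zfp622 lies on chromosome 15 from 25984452 to 25998567 on the plus strand, in a build that neither labels nor headers settle. Its gene length is 7130 bases, of which 1428 are coding in GENCODE M21.

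Zfp704, first named in mouse as a glucocorticoid-induced gene, fell. Its scaled counts were 1737, 1875, 1779 and 1639 with propionate, against 2011, 2365, 2279 and 2232 in controls, and all propionate libraries lay below all control libraries. The mean was 1757 ± 97.9 scaled counts with propionate and 2222 ± 151 in controls (SD, n = 4 each), a log2 fold change of -0.34 ± 0.07 (SE) by edgeR. The authors' deposited table gives 0.00375 as its adjusted p, and by edgeR adjusted over 16064 genes it was 0.182. DESeq2 over those genes gave an adjusted p of 0.00272 with all libraries. Without control replicate 3 DESeq2 gave 0.0594 and a log2 fold change of -0.33. With any other library left out it gave from 0.000363 to 0.0493. The gene is the longest of the 19, with 15255 bases of gene length, of which the coding sequence takes 11.1%, and it lies on chromosome 3 from 9492080 to 9675145 on the minus strand. Once a trend of gene length was removed, described further on, its log2 fold change was -0.03 and DESeq2 gave an adjusted p of 1 over 16064 genes. In GENCODE M21 its exons share 2525 bases (16.6% of them) with C030034L19Rik on the opposite strand, and since the strandedness of the counts is not stated, reads of the pair cannot be told apart.

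**Figure D1:**
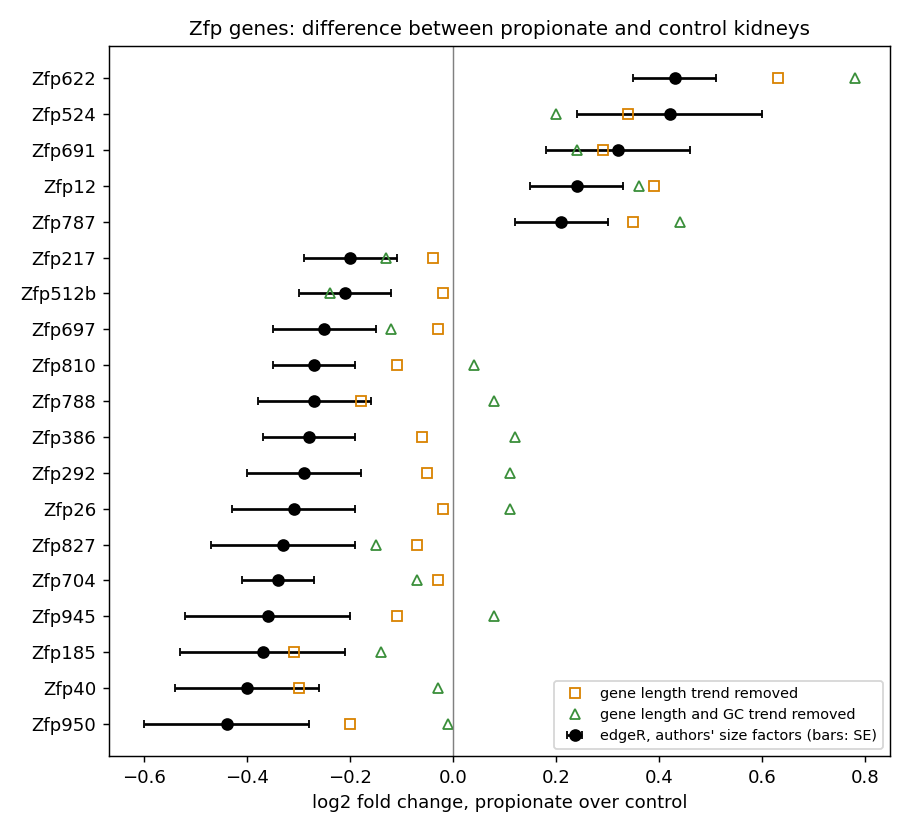
Log2 fold change of each of the 19 Zfp genes, propionate over control, on the x axis. Filled circles with bars are the edgeR estimates with SE from 4 libraries per group, open squares the estimates once a gene length trend was removed and open triangles once a length and GC trend was removed. Zfp622 at 0.43 and Zfp950 at -0.44 are the extremes, and the open squares of the 14 lower genes lie closer to 0 than their circles.

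Besides Zfp622, the members on the list of known roles were Zfp292, Zfp217 and Zfp827, which were lower, as were 46.8% of all genes tested and 73.7% of other long genes. None of these 3 passed in the authors' deposited table (adjusted p from 0.354 to 0.439). Zfp292, a large transcription factor whose human counterpart is tied to neurodevelopmental disorders, had 490, 482, 413 and 341 scaled counts with propionate and 505, 564, 527 and 510 in controls. Its groups did not overlap, but the spread with propionate was wide, and propionate replicate 4 was the lowest. The log2 fold change was -0.29 ± 0.11 (SE), and without propionate replicate 4 it was -0.19. Zfp217, whose human counterpart belongs to co-repressor complexes with the demethylase LSD1, had 449, 374, 433 and 394 scaled counts with propionate, against 462, 451, 469 and 519 in controls, again without overlap but with the nearest libraries at 449 and 451. Zfp827, whose human counterpart recruits the NuRD complex to telomeres, had 343, 363, 227 and 274 scaled counts in propionate libraries and 340, 386, 411 and 383 in control libraries. Here the groups overlapped, and the log2 fold change was -0.33 ± 0.14 (SE), or -0.22 without propionate replicate 3.

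Next come 8 members annotated zf-C2H2 and on no list of roles, placed together for description only, of which Zfp12 is the one that was higher. In Zfp810 the scaled counts were 534, 435, 524 and 466 with propionate and 591, 611, 599 and 567 in controls, a log2 fold change of -0.27 ± 0.08 (SE) with groups apart. The authors' deposited table gives it 0.177 as adjusted p, the smallest among the 17 members that did not pass. Zfp40 had 93.3, 96.9, 122 and 111 scaled counts with propionate and 132, 140, 143 and 145 in controls, again with the groups apart. At this depth its log2 fold change of -0.40 carried an SE of 0.14. Zfp386 had 249, 267, 267 and 235 scaled counts in propionate libraries, against 280, 302, 340 and 318 in control libraries, a log2 fold change of -0.28 ± 0.09 (SE). Zfp12, whose human counterpart is a KRAB repressor, had 414, 399, 391 and 397 scaled counts with propionate and 346, 304, 386 and 321 in controls. The 4 propionate values of Zfp12 were close together and above every control value, and its log2 fold change was 0.24 ± 0.09 (SE), while the authors' deposited table gives 0.36 as adjusted p. In Zfp950, Zfp26, Zfp788 and Zfp945 the groups overlapped and the log2 fold changes ran from -0.27 in Zfp788 to -0.44 in Zfp950, with SE from 0.11 to 0.16.

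**Figure D2:**
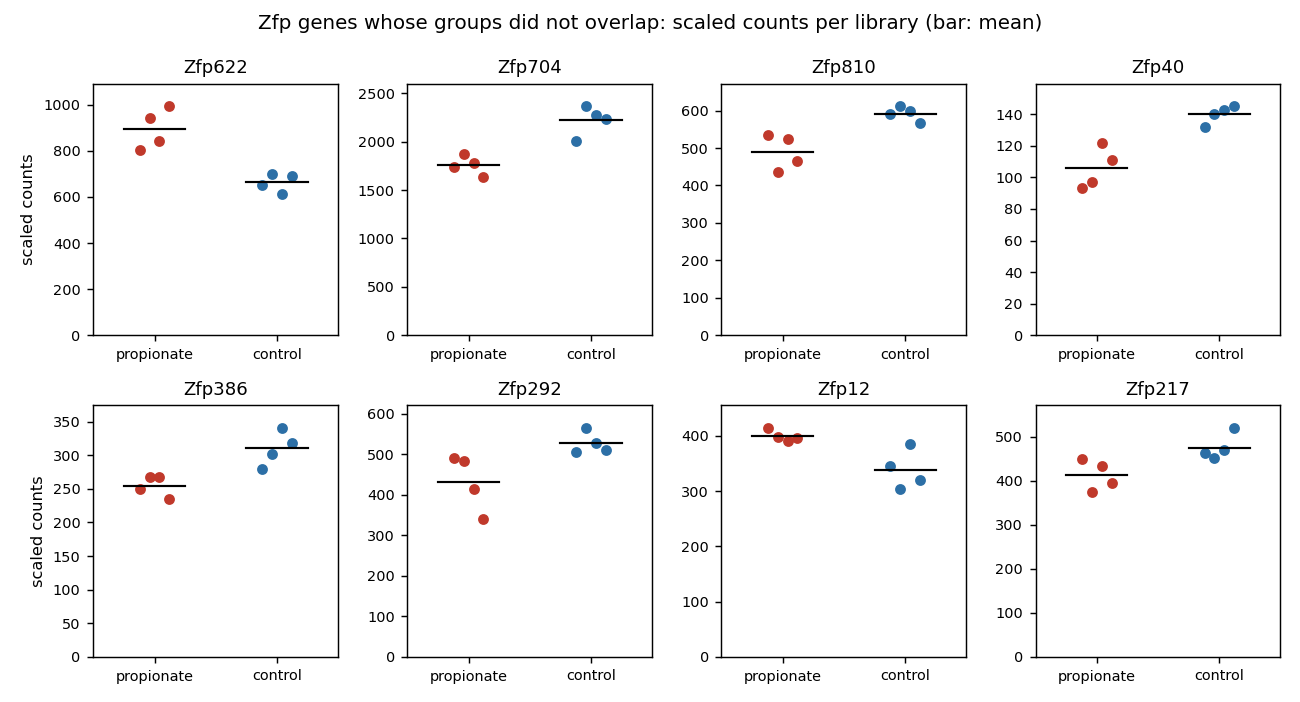
Scaled counts (y axis, from 0) of the 8 Zfp genes whose groups did not overlap, with 1 point per library, propionate left and control right, and a bar at each mean of 4 libraries. Zfp622 and Zfp12 are higher with propionate and the other 6 lower, and in Zfp217 the nearest libraries are at 449 with propionate and 451 in controls.

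The remaining members differed in kind. Zfp185 is a LIM-domain protein bound to actin and carries no transcription factor family in the authors' annotation, as also holds for Zfp704, whereas the other 17 members are annotated zf-C2H2. Zfp185 had 287, 313, 222 and 185 scaled counts with propionate and 359, 283, 340 and 323 in controls, with overlapping groups. Zfp697, an RNA-binding protein in mouse muscle, had 714 ± 66.1 scaled counts with propionate and 850 ± 113 in controls (SD, n = 4 each), also overlapping. Zfp512b, whose human counterpart is linked to TGF-beta signalling, had a log2 fold change of -0.21 ± 0.09 (SE). Zfp524, whose human counterpart binds telomere repeats, had 82.5, 124, 100 and 121 scaled counts with propionate, against 70.9, 77.3, 84.2 and 87.5 in controls. Its lowest propionate library lay within the control range, and the log2 fold change was 0.42 ± 0.18 (SE). Zfp787 and Zfp691 were higher too, with log2 fold changes of 0.21 ± 0.09 and 0.32 ± 0.14 (SE) and overlapping groups. None of these 6 passed in the authors' deposited table, with adjusted p-values from 0.372 to 0.445.

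Groups did not overlap in 8 of 19 members (42.1%), 2 higher and 6 lower, where 47.4% of all listed genes tested were without overlap, 25.4% higher and 22.0% lower. By edgeR with Benjamini-Hochberg adjustment over the listed genes alone, 16 of 19 members passed, where 90.2% of all listed genes, which had been selected on these libraries, did so. Of those 16, 3 were higher and 13 lower, where 48.2% and 42.0% of listed genes were. With TMM scaling it was 1 higher and 12 lower, where 67.9% of listed genes were called, 25.9% higher and 41.9% lower, and no member changed direction. Over 16064 genes edgeR passed 0 members, with adjusted p-values from 0.182 to 0.467, while all 19 had an unadjusted p under 0.05 (94.3% of the listed genes) and DESeq2 passed 2. The calls over the listed genes differed with the library left out, for the members as for the whole table. Without control replicate 3 edgeR called 0 members and 1.66% of listed genes. It called 1 member higher and 1 lower without propionate replicate 3 (7.02% of listed genes), propionate replicate 4 (8.54%), control replicate 2 (9.98%) or control replicate 4 (8.57%). Without control replicate 1 it called 1 higher and 4 lower (30.3% of listed genes). Without propionate replicate 1 it called 3 higher and 9 lower (76.8%), and without propionate replicate 2 it called 2 higher and 10 lower (63.8%).

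Per kilobase, all members were modest in level. Zfp704 had 4.71 ± 0.304 FPKM with propionate and 5.96 ± 0.426 in controls, Zfp787 had 5.24 ± 0.542 and 4.54 ± 0.353 in that order, and Zfp622 had 5.13 ± 0.534 and 3.81 ± 0.266 (SD, n = 4 each). In propionate kidneys the means of these 3 genes differed by less than the SD of Zfp787, while in control kidneys Zfp704 stood above the other 2 by more than any of their SDs. At the low end, Zfp950 had 0.467 ± 0.0839 FPKM with propionate and 0.636 ± 0.0743 in controls. Over all 8 libraries the members ranged from 0.552 to 5.33 FPKM with a median of 2.65, below the median of 7.18 FPKM over the 1664 listed protein-coding genes. The highest member, Zfp704, stood at the 43.3 percentile of those genes. In whole tissue, fewer cells of a type and less RNA per cell cannot be told apart.

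**Figure D3:**
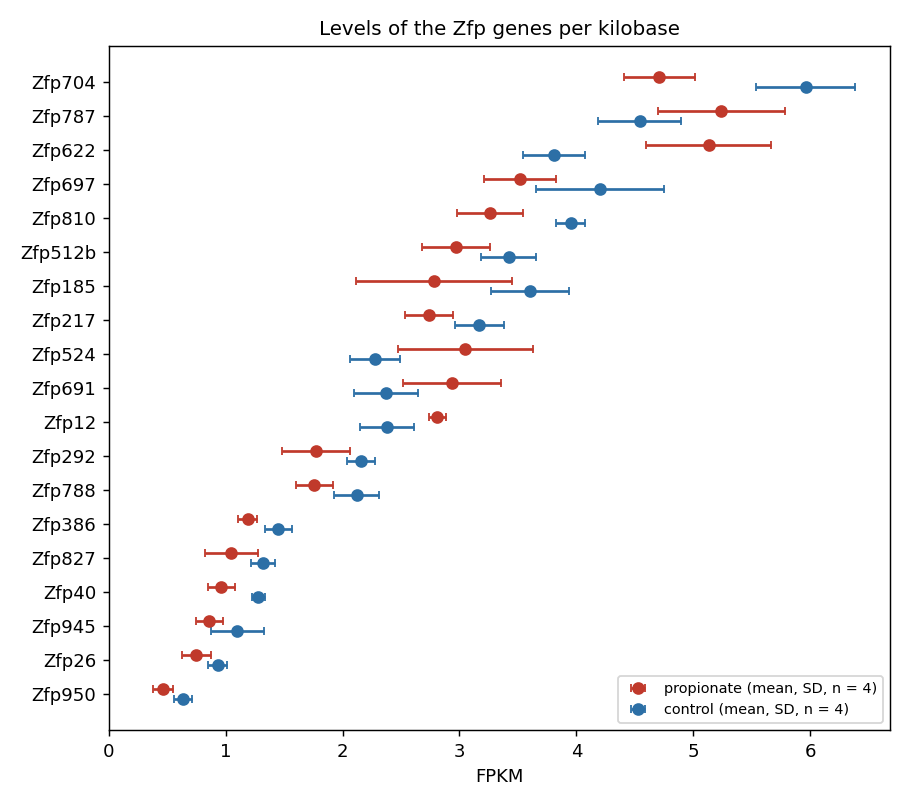
FPKM of the 19 Zfp genes (x axis, from 0), with propionate in red above control in blue, as means with SD of 4 libraries. Genes are ordered by their mean over all 8 libraries, in which Zfp704, Zfp787 and Zfp622 come first; in controls alone Zfp697 (4.20) and Zfp810 stood above Zfp622 (3.81), and Zfp950 is lowest at 0.467 with propionate and 0.636 in controls.

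The members were longer than most listed genes. Their median gene length was 6810 bases (range 1436 to 15255), against 3783 bases over all listed genes, and the coding sequence made up a median of 27.5% of it. The listed genes were divided into equal classes at 2601 and 5278 bases: 14 members were long, 3 mid-length and 2 short. Among long genes, 11 of 14 members (78.6%) and 457 of 620 other genes (73.7%) were lower with propionate, with median log2 fold changes of -0.28 and -0.24. Short genes went the other way, with both short members, Zfp524 and Zfp691, and 77.5% of 542 other short genes higher. The 3 mid-length members, Zfp40, Zfp185 and Zfp788, were all lower, where 40.1% of 611 other mid-length genes were lower. Against all listed genes the members' share of lower genes (73.7%) looked high, while among long genes it was near that of other genes.

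Across genes, Spearman's rho of the log2 fold change with gene length was -0.47 over the 19 members and -0.37 over the 1792 genes tested, and with the GC content of the longest GENCODE M21 transcript it was 0.65 over the members and 0.42 over 1783 genes. With the FPKM level it was 0.51 over the members and 0.40 over the genes tested. The genes share their 8 libraries and are not independent, so these values are descriptions. The members' median GC was 45.7%, against 50.6% over all listed genes, and 14 of 19 members were below that median.

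**Figure D4:**
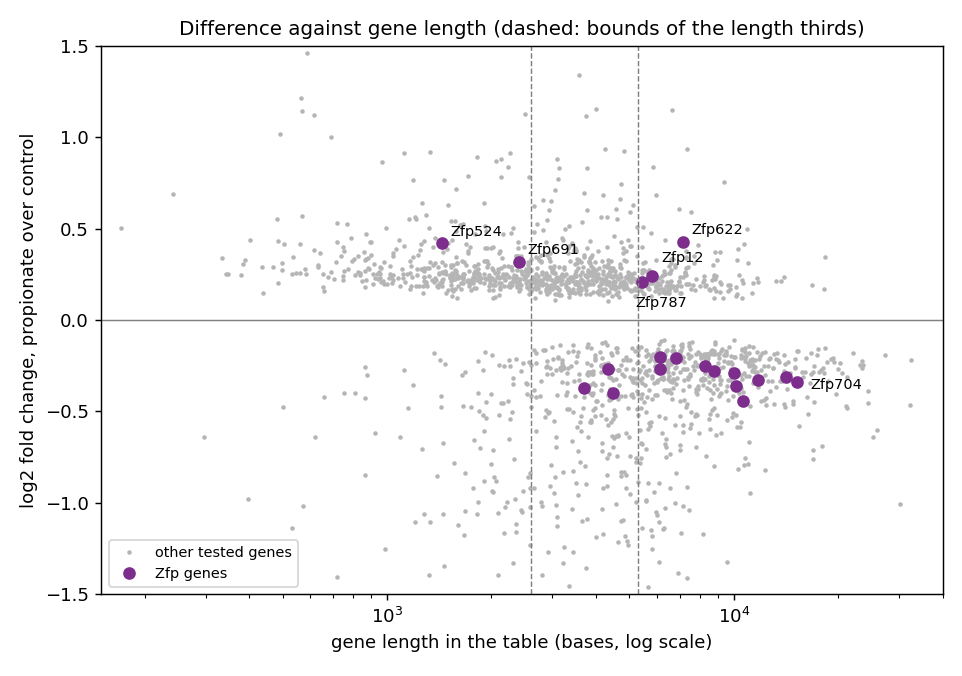
Log2 fold change (y axis, propionate over control) against gene length in bases (x axis, log scale) for the 19 Zfp genes in purple and the other genes tested in grey, with dashed lines at 2601 and 5278 bases. The empty band around 0 comes from the authors' selection, and 38 of 1773 other genes lie outside the axes. Of the 14 long Zfp genes 11 are below 0, as are most grey points to the right of the second line.

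A smooth trend of each library on gene length, fitted over all genes tested, was then removed. Of the 13 lower members that edgeR had called over the listed genes, 0 were still called, where 12.6% of all listed genes were called lower, and the median log2 fold change of the 19 was -0.04. All 14 lower members kept their sign, so that 5 of 19 were above 0, where 61.3% of listed genes were. Of the higher members, Zfp524 and Zfp691 were at 0.34 and 0.29 and not called. The other 3 were further from 0 than before. Zfp622 stood at 0.63 on the log2 scale (edgeR, adjusted p = 0.00401 among the listed genes and 0.0359 over 16064). Zfp12 was at 0.39 (edgeR, adjusted p = 0.00729 among the listed genes and 0.0653 over 16064) and Zfp787 at 0.35 (edgeR, adjusted p = 0.0143 and 0.128). By edgeR Zfp622 was thus under 0.05 over 16064 genes and the other 2 were not. In values over 16064 genes, unlisted genes count as larger p-values, which could not be checked once the trend was removed. DESeq2 adjusted over 16064 genes passed all 3, Zfp622, Zfp12 and Zfp787, and did so with GC content removed as well. The share of all listed genes passing in these DESeq2 fits was not counted, so no result about the members is read from it. Among the listed genes edgeR called these 3 members higher, where 35.4% of all listed genes were. With GC content removed as well, Zfp622 was at 0.78, Zfp12 at 0.36 and Zfp787 at 0.44, the same 3 were called higher (23.4% of listed genes) and 0 lower (9.26%). Then 11 of 19 members were above 0, where 64.8% of listed genes were: 6 lower members, Zfp810, Zfp386, Zfp292, Zfp26, Zfp788 and Zfp945, had turned to log2 fold changes of 0.04 to 0.12. The median of all genes tested was 0.16 before and 0.14 after the length trend was removed, and 0.08 with GC removed too. The trends were fitted on genes selected for a difference, and genes outside the table could not enter the fit. How far this moved the trends, and so the values after their removal, was not tested. A difference that truly followed length would also be removed with the trends.

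Libraries differed in how far long genes were down. The median log2 deviation of the 19 members from their mean over the 8 libraries was -0.02, -0.01, -0.04 and -0.26 in propionate libraries 1 to 4 and 0.02, 0.11, 0.16 and 0.10 in control libraries 1 to 4. The 620 other long genes had -0.03, -0.04, -0.11 and -0.17 with propionate and 0.07, 0.10, 0.12 and 0.07 in controls. Short genes ran opposite, with 0.26 in propionate replicate 4 and -0.16 in control replicate 1. Propionate replicate 4 was thus the lowest for the members and for other long genes and the highest for short ones. It was also the lowest library in 10 of the 14 lower members and the highest in 3 of the 5 higher members. That count was not made over the other listed genes, so whether it is particular to the members was not tested. Without it the members' median log2 fold change was -0.22, against -0.27 with all libraries, with 5 higher and 14 lower as before. RNA integrity values were not used here, and the part of RNA quality in these values was not tested.

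**Figure D5:**
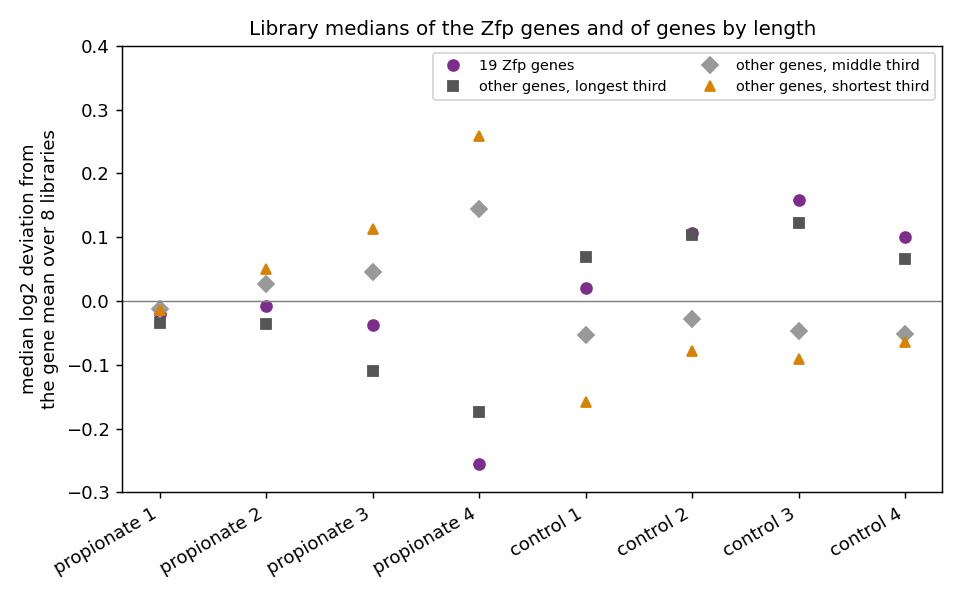
Median log2 deviation from each gene's mean over 8 libraries (y axis) in each library, propionate left and control right, for the 19 Zfp genes and for the other genes tested in the long, middle and short length classes. The Zfp genes and other long genes are lowest in propionate replicate 4, at -0.26 and -0.17, where short genes are at 0.26.

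The factors that work with KRAB zinc finger proteins were sparsely listed, 4 of 41 symbols, and none passed in the authors' deposited table. Trim28, the co-repressor that the KRAB domain recruits, had 2249 ± 168 scaled counts with propionate and 1956 ± 105 in controls (SD, n = 4 each), a log2 fold change of 0.20 ± 0.07 (SE). Mbd3, a NuRD subunit, and Ehmt2, a histone H3 methyltransferase, were higher as well, with log2 fold changes of 0.22 ± 0.07 and 0.15 ± 0.06 (SE). Tasor, the long scaffold gene of the silencing complex HUSH, was lower (-0.33 ± 0.14, SE). Factors of ribosome maturation and of stalled ribosomes, the setting of Zfp622, had 3 of 20 symbols listed, all higher and none passing: Rack1, a scaffold on the small subunit (0.17 ± 0.06, SE), Eif6, which keeps the large subunit from joining early (0.22 ± 0.09), and Edf1, which binds collided ribosomes (0.24 ± 0.10). With length and GC removed, Trim28, Mbd3, Ehmt2 and Tasor were at 0.06, -0.01, 0.03 and 0.09, so that Mbd3 and Tasor turned direction, and Rack1, Eif6 and Edf1 at 0.33, 0.06 and 0.03.

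C2H2 genes under other names showed no common direction. Of the 35 symbol patterns searched, 12 genes were listed, 7 higher and 5 lower, with a median log2 fold change of 0.20 and none passing in the authors' deposited table. Klf10 and Klf3, Krüppel-like factors, were lower (-0.46 ± 0.13 and -0.24 ± 0.07, SE), and Sall2 was higher (0.26 ± 0.08). With length and GC removed Klf10 and Sall2 were at -0.26 and 0.27, and Klf3 turned to 0.08. In the authors' own zf-C2H2 annotation 16 listed genes were not Zfp genes, of which 6 were higher and 10 lower, beside 5 and 14 among the Zfp genes. The median log2 fold change of those 16 was -0.24 and their median gene length 4304 bases. The 12 and the 16 overlap, with Klf10, Klf3, Klf15, Sall2, Zeb2, Egr1, Maz, Snai1 and Klf7 in both.

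On the map, the 19 members lay on 12 chromosomes. Zfp945 and Zfp40, both lower, were 307 kb apart on chromosome 17, and Zfp26 and Zfp810, both lower, were on chromosome 9. Zfp524 and Zfp787, both higher, were on chromosome 7, as was Zfp788, which was lower. Zfp524 shares 73 exon bases with Fiz1 on the opposite strand in GENCODE M21, and Fiz1 had a log2 fold change of 0.20 ± 0.08 (SE). It also shares 668 bases, 46.5% of its exons, with Gm44973 on its own strand, so that its count is uncertain. Runs of 100 bases shared with transcripts of other genes made up more than 1% of the longest transcript in 3 members, Zfp26, Zfp524 and Zfp704. They were absent from the longest transcript in 14 members. Over all exons, 7 of the 19 members overlapped another gene in GENCODE M21. Zfp26 shares 2004 bases, 14.2% of its exons, with Gm26733 on the opposite strand. Zfp697 shares 281 bases (3.4% of its exons) with Hsd3b3 and 99 bases (1.2%) with Hsd3b2, both on the opposite strand.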

How the data were processed

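Kidney RNA of 8 MRL-lpr mouse samples was sequenced as paired reads of 150 bases. Per gene, the authors deposited read counts as whole numbers, a scaled signal (counts over 1 size factor per library), FPKM, gene length, and their own log2 fold changes and p-values, per the file headers. The submitters' processing notes name DESeq2 and mm10. No source used here names the aligner or counter. For 1796 listed genes the deposited adjusted p-values fit 16064 genes (relative error up to 4.03e-06, scored without the smallest p-values). The other 135 listed genes have the largest possible adjusted p, were left out of that fit and count as not passing. Of the 1931 identifiers, 1913 are in GENCODE M21 (GRCm38) and 44 have the same start and end there, so coordinates are printed as deposited. The deposited gene length was within 10% of the exon union in GENCODE M21 for 97.3% of genes.

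All counts were fitted with edgeR 4.0.16 (R 4.3.3), quasi-likelihood test, with 4 libraries per group and no covariate. It used the authors' size factors, which come from their whole table, the default expression filter (1792 genes, all 19 members) and Benjamini-Hochberg adjustment over the genes tested, or over 16064 where genes outside the table count as larger p-values. The SE beside edgeR log2 fold changes were derived as the absolute log2 fold change over the square root of the quasi-likelihood F statistic. DESeq2 1.42.0 with the same factors was an alternative. Trends were natural splines of each library on log2 gene length and GC, used as offsets. The fit was tested on simulated counts with no length trend and no selection on p. That test does not cover the calls over the listed genes or the removal of trends. The members, gene lists and tests were chosen with earlier results of these data known. Members named in full were those passing in the authors' deposited table, the 6 highest by FPKM, the 6 largest differences each way with a mean of at least 50 scaled counts and no overlap, the 2 longest and 2 shortest, and those with a listed role; the others are named because all 19 are accounted for. List genes named were those passing, or else up to 3 with the smallest p; Tasor and Fiz1 were named after their values were seen. Replicates were distinct libraries.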

Additional observations from a re-analysis of the deposited data

Results flagged for a closer look

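Each member's scaled counts were examined in both groups for a library far from the other 3 (Dixon's criterion). In 0 of 38 groups of 4 libraries did the gap exceed it, while chance would give about 1 in 20.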

How the results depend on the processing

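Over the listed genes edgeR called 3 members higher and 13 lower, and 1616 genes in all. TMM scaling called 1 member higher. With the length trend removed 0 members were called lower and 860 genes in all, and the members' median log2 fold change was -0.04. With the length trend and the replicate block together these were 0, 974 and -0.04. With length and GC removed 0 members were called lower and 586 genes in all, 11 members had a positive log2 fold change, and the median was 0.08; the members that turned were Zfp810 (0.04), Zfp386 (0.12), Zfp292 (0.11), Zfp26 (0.11), Zfp788 (0.08) and Zfp945 (0.08). Adjusted over 16064 genes, 0 members were called higher, 0 lower and 0 genes in all, where 1690 of the listed genes had an unadjusted p under 0.05 and DESeq2 called 166. Leaving out 1 library gave 0 to 3 members higher, 0 to 10 lower, 30 to 1389 genes in all, 5 members with a positive log2 fold change each time, and a median from -0.31 to -0.22. The replicate block gave 3 members higher and 11 lower, and Zfp788 and Zfp217 lost the call (edgeR, adjusted p = 0.0527 and 0.052). Same-numbered libraries deviated together in 3 of 4 pairs (r = 0.32, 0.33 and 0.22, and -0.03 for number 3). The labels do not pair the numbers, so the main fit had no block, and what same-numbered libraries share was not tested. Over 17 settings the 19 members gave 323 values, of which 6 turned direction, 157 lost the call (turned ones included) and 9 gained it. The DESeq2 fits without 1 library or with trends removed were chosen after seeing the data. The adjustment over the listed genes passes most of them by construction, and Zfp524 had the widest SE of the members (0.18). The cause of these changes was not tested.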

Other observations

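Genes named for other zinc-binding folds, 12 of them listed, were 3 higher and 9 lower with propionate, with a median log2 fold change of -0.25. Znrf2, a membrane-bound ubiquitin ligase, fell (adjusted p = 0.02 in the authors' deposited table). It had 2394 ± 51.3 scaled counts with propionate and 2786 ± 105 in controls (SD, n = 4 each), a log2 fold change of -0.22 ± 0.05 (SE), which was -0.05 with the length trend removed and turned to 0.09 with length and GC removed. Zfp36, which binds AU-rich elements and speeds the decay of inflammatory mRNAs, had 472 ± 42.4 scaled counts with propionate and 596 ± 78.3 in controls (SD, n = 4 each), and did not pass (adjusted p = 0.184 in the authors' deposited table). The log2 fold change of Zfp36 was -0.34 ± 0.11 (SE), -0.29 with the length trend removed and -0.39 with length and GC removed. The related Zfp36l1 stood at -0.15 ± 0.05 on the log2 scale (SE), with 0.264 as adjusted p in the authors' deposited table. Zfp36 and Zfp36l1 were named after their values were seen.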
